A study of Homo sapiens with 12 samples.

Results

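A set of 10 genes of amino acid synthesis and uptake was followed through RNA sequencing of 12 libraries: ASNS, PHGDH, PSAT1, PSPH, SHMT2, MTHFD2, SLC7A5, SLC3A2, SLC7A1 and SLC38A2. They were chosen by name, as metabolic targets of the transcription factor ATF4, with earlier results of these data known. Each was 1 row of the gene count table, so that 10 of 36486 symbols or identifiers are described. The study asked whether the compounds UCI-1001 and UCI-1014 return activity to mutant p53, and set them against the expression of p53-WT. TOV-112D cells, an ovarian adenocarcinoma line with p53 R175H, were treated for 3 h with DMSO (vehicle), UCI-1001 or UCI-1014, with 2 libraries each. Cells labelled Saos-2, an osteosarcoma line, were the parental p53-null line or a derivative that carries p53-WT under doxycycline control, both labelled with 16 h of induction, with 3 libraries each. All 6 TOV-112D libraries carry R175H, the DMSO libraries included, and no dose for the UCI-1014 libraries is given in the sources used here. Nothing says that the replicates came from separate cultures, so the p-values measure the spread between these libraries, which may be technical. Beside the p53-WT construct, the derivative line differs from the parental line by its own engineering and passage, and the effect of p53-WT cannot be told apart from these.

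The integrated stress response is a pathway in which kinases that sense amino acid shortage, unfolded protein, viral RNA or heme deficiency slow translation while ATF4 protein is made in greater amount. ATF4 then binds composite C/EBP-ATF elements and turns on genes that make, import and charge amino acids. In tumour cells the serine, glycine and folate genes among them also feed nucleotide synthesis. ASNS makes asparagine from aspartate with nitrogen from glutamine. PHGDH, PSAT1 and PSPH catalyse, in that order, the steps from 3-phosphoglycerate to serine. SHMT2 turns serine into glycine in mitochondria and loads the released carbon onto folate, and MTHFD2 oxidises that folate. SLC7A5 (LAT1) exchanges large neutral amino acids and needs SLC3A2 (CD98 heavy chain) as its partner at the membrane. SLC7A1 (CAT1) imports arginine and lysine, and SLC38A2 (SNAT2) takes up small neutral amino acids with sodium.

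On GRCh38 (GENCODE 44), ASNS (ENSG00000070669) lies at chr7:97851677-97872542 on the minus strand. The serine genes are PHGDH (ENSG00000092621) at chr1:119648411-119744218 on the plus strand, PSAT1 (ENSG00000135069) at chr9:78297125-78330093 on the plus strand and PSPH (ENSG00000146733) at chr7:56011051-56051604 on the minus strand. SHMT2 (ENSG00000182199) is at chr12:57229573-57234935 and MTHFD2 (ENSG00000065911) at chr2:74186172-74217565, both on the plus strand. Of the transporters, SLC7A5 (ENSG00000103257) is at chr16:87830023-87869507 on the minus strand, SLC3A2 (ENSG00000168003) at chr11:62856004-62888880 on the plus strand, SLC7A1 (ENSG00000139514) at chr13:29509414-29595688 on the minus strand and SLC38A2 (ENSG00000134294) at chr12:46358188-46372773 on the minus strand. Each locus spans exons and introns, and the counts are summed over all annotated transcripts of a gene, those with a retained intron included.

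RefSeq promoter windows (GRCh38.p14, 250 bases before to 50 after a start site) were matched for 8 of the 10 genes, as 11 windows. These 8 were ASNS, PHGDH, PSAT1, MTHFD2, SLC7A5, SLC3A2, SLC7A1 and SLC38A2, so PSPH and SHMT2 are only named. They were searched on both strands for TGATGNAA, the core of the C/EBP-ATF composite element, and for CACGTG, the E-box that MYC and related factors bind. TGATGNAA was found in windows of 3 genes, ASNS, SLC3A2 and SLC7A1, of the 8 matched, and CACGTG in 1, SLC7A5. Over all genes in the table, 4.46% of 27305 symbols had TGATGNAA in a window and 8.77% had CACGTG, and by window the shares were 3.62% and 7.26% of 35116. No match overlapped another. The matches are shown because the ASNS and SLC7A1 windows hold the same 8 letters while the levels of these genes moved by different amounts below. In each line the match is in capitals, and positions count from the start site as 1, with negative values before it. The ASNS match is at positions -68 to -61 within chr7:97872443-97872502 (minus strand). The SLC7A1 match is at 8 to 15 within chr13:29595663-29595692 (minus strand). The SLC3A2 match is at 38 to 45, on the opposite strand, within chr11:62881719-62881748 (plus strand). The SLC7A5 E-box is at -130 to -125 within chr16:87869604-87869663 (minus strand). A match describes letters only, and binding was not measured here.
ASNS: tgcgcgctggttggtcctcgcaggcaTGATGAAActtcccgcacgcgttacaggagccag
SLC7A1: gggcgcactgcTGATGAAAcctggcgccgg
SLC3A2: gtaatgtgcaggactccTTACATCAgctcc
SLC7A5: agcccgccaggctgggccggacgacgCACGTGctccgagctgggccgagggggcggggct

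The libraries held 17762027 to 20717898 counts in TOV-112D and 19593655 to 24629558 in the lines labelled Saos-2. Replicate 1 of p53-null and of p53-WT stood apart from the other replicates, where chi-square divided by its degrees of freedom was 24.6 to 41.3, and 3.95 and 3.19 between replicates 2 and 3. Results from these lines are therefore also given without them where a call or direction changes. In the lines labelled Saos-2, 6 of 10 osteoblast markers were under 1 CPM (counts scaled to the size of the library) in all libraries, ALPL, SP7, IBSP and BGLAP among them, while the keratins KRT8 (209.2 to 520.6 CPM) and KRT18 (389.6 to 592.2 CPM) were high. In TOV-112D, 6 of 8 epithelial markers were under 1 CPM in all libraries, and EPCAM and CDH1 were at most 3.19 and 1.69 CPM. Summed over the lists, osteoblast markers were at 69.6 to 87.0 CPM in p53-null and 56.5 to 61.0 in p53-WT libraries, and epithelial markers at 761.5 to 812.9 and 811.8 to 993.1 CPM. Nearly all of the epithelial sum was KRT8 and KRT18, as the other 6 markers were at most 2.68 CPM in these lines, 3 of them under 1 CPM in all libraries. In TOV-112D the osteoblast sum was 65.8 to 70.9 CPM, mostly COL1A1 (47.7 to 50.9 CPM). Levels of ALPL, SP7, IBSP and BGLAP near 0 go against the label of an osteosarcoma line, the identity of the line was not tested, and neither was the part of these markers in the results. In bulk RNA, fewer cells of a type and less RNA per cell cannot be told apart.

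Taken as a share of all counts, the 10 genes held 0.19% and 0.189% in the DMSO libraries, 0.236% and 0.25% in those of UCI-1001 and 0.343% and 0.344% in those of UCI-1014. In p53-null libraries the share was 0.206%, 0.216% and 0.206%, and in p53-WT libraries 0.155%, 0.19% and 0.191%. The share was thus higher with each compound than with vehicle in every library, and lower in every p53-WT library than in every p53-null one.

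UCI-1001 raised 8 of the 10 genes above DMSO with edgeR and 7 with DESeq2, and 9 were higher at an unadjusted p under 0.05 with edgeR. By each of these measures 0 were lower. Over all genes, DESeq2 called 6.1% higher and 2.95% lower, and 4003 of 14177 had an unadjusted p under 0.05 with edgeR in either direction. The largest increases were those of ASNS (1.71-fold), SLC38A2 (1.66-fold) and PSAT1 (1.63-fold), and PHGDH and SHMT2 did not pass the test. Across all 14177 genes tested with edgeR's quasi-likelihood test at an adjusted p under 0.05, 9.39% were higher and 6.36% lower. The median log2 fold change of the 10 genes was 0.43, and that of all genes tested was 0.00. UCI-1014 raised 9 of the 10, with SHMT2 alone not called, where 23.7% of all genes tested were higher and 23.4% lower. Its median over the 10 genes was 1.01, against -0.02 over all genes. Both contrasts rest on the same 2 DMSO libraries.

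**Figure D1:**
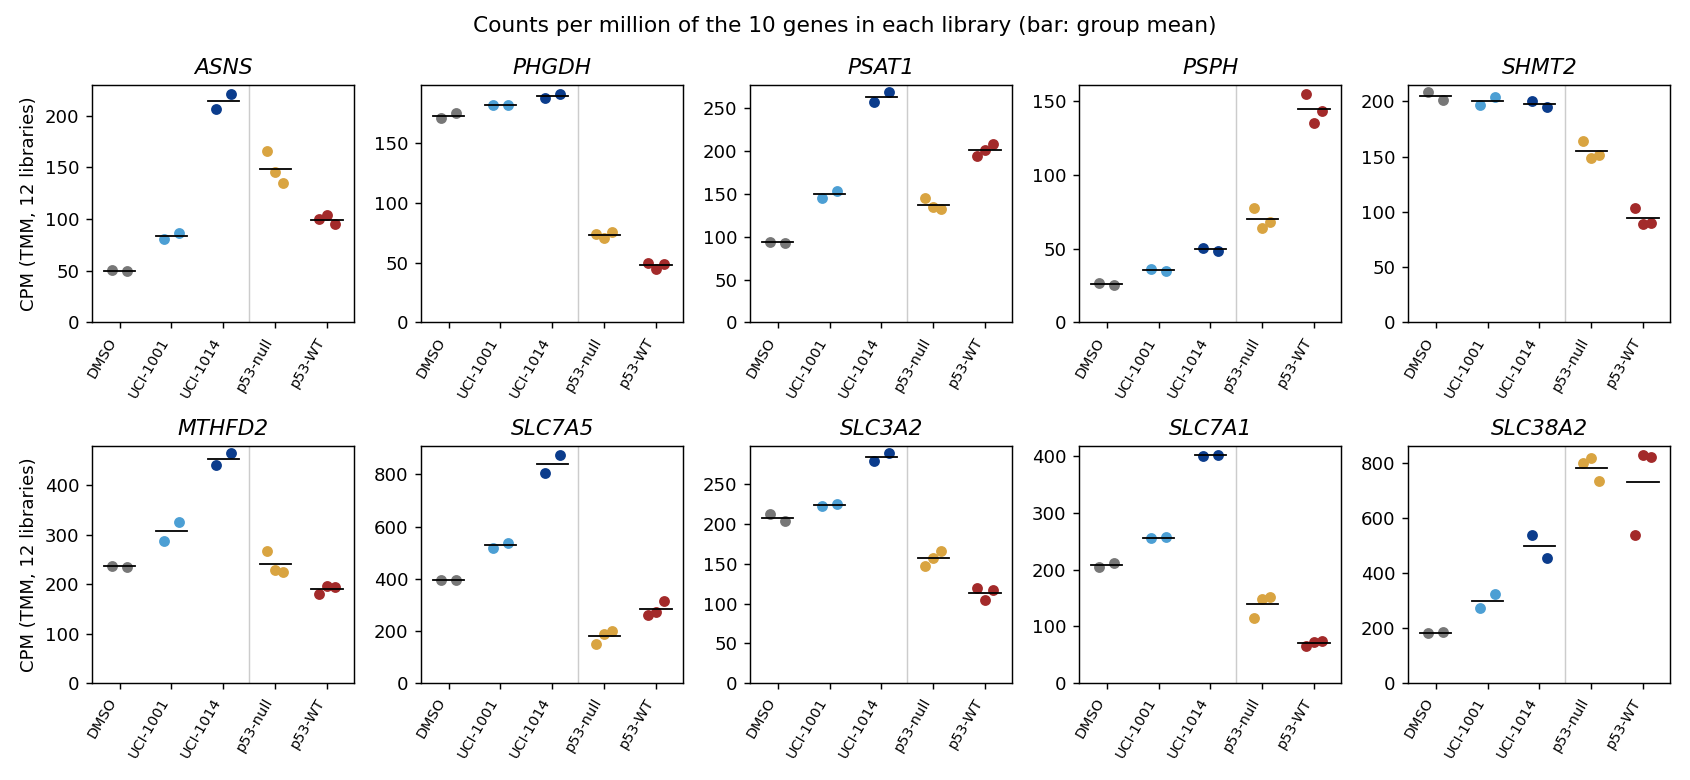
Level of each of the 10 genes in each of the 12 libraries, in CPM scaled by TMM over all 12 libraries, with one panel per gene, one point per library and a bar at the group mean. Every gene but SHMT2 steps up from DMSO to UCI-1001 to UCI-1014 without overlap. Lack of overlap between a pair of these groups was common, at 57.4% to 73.4% of all genes. SHMT2 stays level in TOV-112D, and PSPH is highest in p53-WT.

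ASNS had the largest response. Its level was 51.9 and 51.2 CPM with DMSO, 84.8 and 91.2 with UCI-1001 and 223.1 and 236.3 with UCI-1014. The 3 groups did not overlap, as was also so for 57.4% of all genes between UCI-1001 and DMSO, 73.4% between UCI-1014 and DMSO and 63.7% between the compounds. The log2 fold change was 0.77 (SE 0.05) with UCI-1001 (edgeR adjusted p = 2.46e-07), and 2.15 (SE 0.05) with UCI-1014 (adjusted p = 2.53e-13), a 4.45-fold rise.

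The enzymes of serine synthesis did not move together. PHGDH, the entry step, was at 175.2 and 179.7 CPM with DMSO, 189.9 and 190.3 with UCI-1001 and 201.9 and 203.9 with UCI-1014. These steps were small: 1.07-fold with UCI-1001, which was not called (edgeR adjusted p = 0.094, 95% interval of the log2 fold change 0.02 to 0.18), and 1.14-fold with UCI-1014 (adjusted p = 0.000699). With scaling by library size alone the UCI-1014 difference of PHGDH was 0.06 on the log2 scale and lost its call (adjusted p = 0.207), as it did in the fit of all 12 libraries (adjusted p = 0.305). PSAT1, the transaminase of the next step, was at 96.2 and 95.9 CPM with DMSO, 152.3 and 160.9 with UCI-1001 and 277.4 and 286.3 with UCI-1014. Its rise was 1.63-fold with UCI-1001 (adjusted p = 6.81e-08) and 2.94-fold with UCI-1014 (adjusted p = 1.25e-12). PSPH, the closing phosphatase, was at 27.4 and 26.04 CPM with DMSO, 38.1 and 36.7 with UCI-1001 and 54.9 and 52.1 with UCI-1014. It rose 1.40-fold with UCI-1001 (adjusted p = 0.000255) and 2.00-fold with UCI-1014 (adjusted p = 2.05e-08). The steps of PSAT1 and PSPH between the groups were larger than those of PHGDH.

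The mitochondrial folate genes also parted. MTHFD2 was at 243.0 and 242.0 CPM with DMSO, 300.3 and 342.5 with UCI-1001 and 476.3 and 496.5 with UCI-1014, rises of 1.32-fold (edgeR adjusted p = 9.1e-05) and 2.01-fold (adjusted p = 9.89e-10). SHMT2, which acts just before it, was at 214.5 and 207.2, 206.0 and 214.3, and 216.4 and 208.3 CPM in the same order of groups. The SHMT2 groups overlapped, and the 95% intervals of its log2 fold change were -0.09 to 0.08 for UCI-1001 and -0.08 to 0.10 for UCI-1014. Under scaling by library size alone SHMT2 was instead called lower with UCI-1014, at -0.13 on the log2 scale (adjusted p = 0.0171), while the median of all genes moved by -0.135.

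Among the transporters, SLC38A2 was at 186.7 and 191.0 CPM with DMSO, 286.6 and 339.4 with UCI-1001 and 582.3 and 487.0 with UCI-1014. It rose 1.66-fold (edgeR adjusted p = 2.02e-05) and 2.83-fold (adjusted p = 1.24e-09), and the replicates within each compound differed more than for the other transporters. SLC7A5 was at 405.4 and 407.5, 542.2 and 566.0, and 871.2 and 933.3 CPM, rises of 1.36-fold (adjusted p = 3.17e-06) and 2.22-fold (adjusted p = 1.45e-11). Its partner SLC3A2 was at 218.3 and 208.8, 233.5 and 236.2, and 301.5 and 308.3 CPM. The step of SLC3A2 was 1.10-fold with UCI-1001 (adjusted p = 0.0257) and 1.43-fold with UCI-1014 (adjusted p = 5.72e-08). Its UCI-1001 call was lost under DESeq2 (adjusted p = 0.0618), under scaling by library size alone (0.0546), with a replicate block (0.0542) and when any 1 of the 4 DMSO and UCI-1001 libraries was left out (0.0597 to 0.278). SLC7A1 was at 210.9 and 217.1, 267.3 and 271.3, and 432.6 and 428.7 CPM, rises of 1.26-fold (adjusted p = 2.39e-05) and 2.01-fold (adjusted p = 1.83e-11). All 4 transporters stood highest with UCI-1014, with no overlap between the groups, which by itself is common here (57.4% to 73.4% of all genes, depending on the pair of groups).

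**Figure D2:**
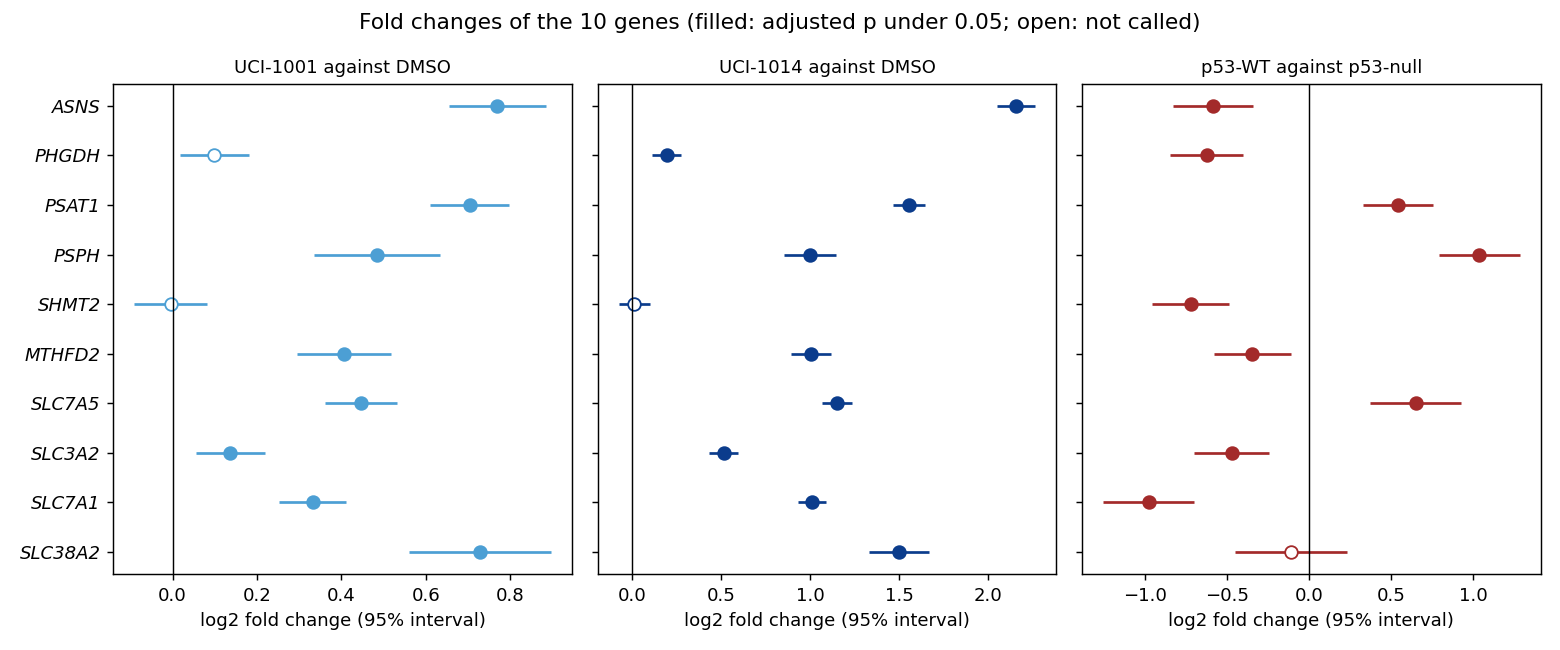
Log2 fold change of each gene (horizontal axis, log2 scale, with its 95% interval from edgeR) for UCI-1001 and UCI-1014 against DMSO and for p53-WT against p53-null; filled points have an adjusted p under 0.05. ASNS is farthest right with either compound, at 0.77 and 2.15, and left of zero, at -0.58, in p53-WT, where PSAT1, PSPH and SLC7A5 alone are called higher.

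The number of calls with UCI-1001 depended on the fit. In a fit of all 12 libraries, which also changed the scaling factors and the genes tested, the genes of this set called higher went from 8 to 2, ASNS (edgeR adjusted p = 0.00133) and PSAT1 (adjusted p = 0.000516). That fit called 1.62% of all genes higher and 0.329% lower. The biological coefficient of variation was 3.59% in the TOV-112D fit and 9.7% in that of all 12 libraries, and its part in the lost calls was not tested. Leaving out a single library gave 7 of 10 each time, SLC3A2 being the one lost, while the calls over all genes fell from 2232 to 952 without DMSO replicate 1, 1020 without DMSO replicate 2 and 1188 without UCI-1001 replicate 2. With scaling by library size alone, 16.7% of genes tested were higher and 38.9% lower with UCI-1014.

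Set against UCI-1001, UCI-1014 gave higher levels of 8 of the 10 genes with 2 not called, where 17.1% of genes tested were higher and 13.9% lower. ASNS differed most, at 2.61-fold (edgeR adjusted p = 1.16e-10), followed by PSAT1 at 1.80-fold (adjusted p = 2.07e-09), SLC38A2 at 1.71-fold (adjusted p = 3.13e-06) and SLC7A5 at 1.63-fold (adjusted p = 9.57e-09). SLC7A1 was 1.60-fold, MTHFD2 1.51-fold, PSPH 1.43-fold and SLC3A2 1.30-fold higher, with adjusted p-values of 3.01e-05 or less. The interval of the log2 difference was 0.01 to 0.17 for PHGDH (adjusted p = 0.0725) and -0.07 to 0.10 for SHMT2 (adjusted p = 0.823). With scaling by library size alone both of these differences were negative, at -0.02 for PHGDH and -0.10 for SHMT2, and 10.9% of genes tested were higher and 31.9% lower. As the dose of UCI-1014 is not given here, a difference between the compounds and one between doses cannot be told apart.

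In the lines labelled Saos-2 the same genes divided. p53-WT libraries had 6 of the 10 at lower and 3 at higher levels than p53-null libraries, and SLC38A2 was not called. Of 14275 genes tested, 33.5% were higher and 33% lower, so a call by itself was common here. The median log2 fold change of the 10 was -0.41, against -0.01 over all genes, and the biological coefficient of variation was 12.26%. The counts of 3 higher and 6 lower held with replicate 1 of both lines left out, an alternative added after the data were seen.

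The genes that rose in p53-WT were PSPH, SLC7A5 and PSAT1. PSPH was at 74.3, 61.4 and 65.3 CPM in p53-null and 147.8, 129.0 and 135.5 in p53-WT, a 2.05-fold difference (log2 1.04, SE 0.11, edgeR adjusted p = 1e-05). SLC7A5 was at 145.0, 178.6 and 191.4 CPM in p53-null and 251.2, 260.1 and 297.2 in p53-WT, 1.57-fold higher (adjusted p = 0.000808). PSAT1 was at 138.8, 128.2 and 126.7 CPM in p53-null and 185.4, 192.0 and 196.6 in p53-WT, 1.46-fold higher (adjusted p = 0.000441). For each of these genes the lowest p53-WT library was above the highest p53-null library. Groups without overlap were the usual case in this comparison, at 70.7% of all genes.

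The largest decrease was that of the arginine and lysine carrier SLC7A1, at 110.2, 141.9 and 145.6 CPM in p53-null and 62.3, 69.3 and 70.3 in p53-WT, 1.97-fold lower (edgeR adjusted p = 4.2e-05). SHMT2, which did not move with the compounds, was at 157.7, 141.5 and 144.6 CPM in p53-null and 99.0, 85.2 and 85.1 in p53-WT, 1.65-fold lower (adjusted p = 0.00012). PHGDH was at 70.6, 67.2 and 72.0 CPM in p53-null and 47.5, 42.5 and 46.1 in p53-WT, 1.54-fold lower (adjusted p = 0.000232). In these 3 genes no p53-WT library reached the lowest p53-null one (70.7% of all genes had no overlap). ASNS was at 158.8, 138.3 and 128.9 CPM in p53-null and 95.4, 99.2 and 89.6 in p53-WT, 1.499-fold lower (adjusted p = 0.000707). SLC3A2 was at 140.9, 149.2 and 158.6 CPM in p53-null and 114.2, 99.3 and 110.3 in p53-WT, 1.39-fold lower (adjusted p = 0.002). MTHFD2 was at 255.0, 218.0 and 213.9 CPM in p53-null and 171.4, 186.6 and 182.7 in p53-WT, 1.27-fold lower (adjusted p = 0.014). The step of MTHFD2 was the smallest of those called, and its groups did not overlap either. SLC38A2 was at 767.4, 778.7 and 701.0 CPM in p53-null and 514.0, 792.1 and 775.8 in p53-WT. Its p53-WT replicate 1 was far below the others, and without it the log2 difference changed sign, from -0.11 (adjusted p = 0.552) to 0.07 (adjusted p = 0.52).

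PSAT1 and PSPH thus rose with each compound against DMSO and in p53-WT against p53-null, and so did the transporter SLC7A5. PHGDH was lower in p53-WT, barely higher with UCI-1014 and not called with UCI-1001. Between DMSO TOV-112D and p53-null libraries, PSAT1 and PSPH were lower and PHGDH and SLC7A5 higher in TOV-112D, as given below. The difference between these genes was not tested. Within a library, where TPM, which corrects for transcript length, allows genes to be set against each other, the ratio of PSAT1 to PHGDH was 0.426 and 0.364 with DMSO and averaged 0.614 with UCI-1001, 0.894 with UCI-1014, 1.19 in p53-null and 2.70 in p53-WT. The ratio of PSPH to PHGDH averaged 0.17 with DMSO, 0.943 (SD 0.157, n = 3) in p53-null and 3.59 (SD 0.486, n = 3) in p53-WT. The ratio of MTHFD2 to SHMT2 averaged 0.783 in DMSO, 1.10 in UCI-1001 and 1.67 in UCI-1014 libraries, and 1.31 in p53-null and 1.80 in p53-WT, where both genes were lower and SHMT2 by more. The ratio of SLC7A5 to its partner SLC3A2 averaged 0.752 with DMSO, 1.13 with UCI-1014, 0.386 in p53-null and 0.811 in p53-WT. These ratios are descriptions and were not tested.

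**Figure D3:**
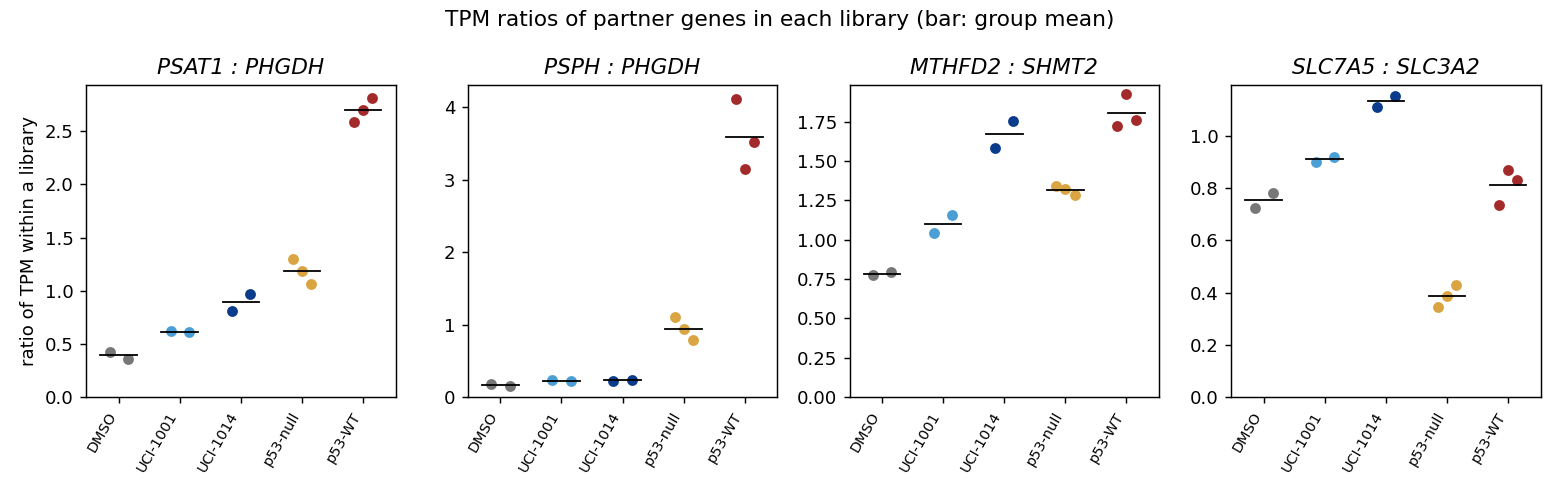
Ratio of the TPM of partner genes within each library (vertical axis, no unit), with one point per library and a bar at the group mean. PSAT1 to PHGDH ranges from a mean of 0.395 with DMSO to 2.70 in p53-WT, and all 4 ratios are higher in each compound group and in p53-WT than in the matching control.

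By TPM, SHMT2 was the most abundant of the 10 with DMSO (250.1 TPM, SD 8.55, n = 2) and PSPH the least (32.8 TPM, SD 1.44). With UCI-1014 the order was led by MTHFD2 (412.4 TPM, SD 17.7, n = 2) and SLC7A5 (312.7 TPM, SD 11.6), and SHMT2 stood at 247.4 TPM. By group mean, SLC38A2 led in p53-null (245.7 TPM, SD 22.7, n = 3) and in p53-WT (200.7 TPM, SD 54.9). SLC7A1 was lowest in both, at 25.8 (SD 5.63) and 11.6 (SD 2.25) TPM. PSPH, the least abundant in TOV-112D, stood next to the top in p53-WT at 150.6 TPM (SD 6.76, n = 3). In p53-WT replicate 1 PSPH (153.2 TPM) stood above SLC38A2 (137.7 TPM). MTHFD2, SLC7A5 and SLC3A2 (276.1 TPM, SD 2.96) thus stood above SHMT2 with UCI-1014, and MTHFD2 already did with UCI-1001, at 266.8 against 242.7 TPM, while the order at the top of the p53-null and p53-WT libraries was the same for SLC38A2 only.

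Across the lines, TOV-112D with DMSO had higher levels than p53-null of 5 of the 10 genes and lower levels of 4. Of the 15794 genes tested, 37.4% were higher and 37.2% lower. On the scale of all 12 libraries, SLC38A2 was 183.8 CPM (SD 2.61, n = 2) in DMSO and 784.2 CPM (SD 43.5, n = 3) in p53-null libraries, 4.27-fold lower in TOV-112D (edgeR adjusted p = 5.46e-08). ASNS was 2.96-fold lower (adjusted p = 4.58e-09), PSPH 2.69-fold lower (adjusted p = 1.46e-08) and PSAT1 1.47-fold lower (adjusted p = 2.01e-05). PHGDH was 2.36-fold higher (adjusted p = 3.36e-09), SLC7A5 2.20-fold (adjusted p = 4.96e-07), and SLC3A2 and SHMT2 each 1.33-fold higher, with adjusted p-values of 0.000599 and 0.000692, and SLC7A1 was higher by 0.585 on the log2 scale (adjusted p = 0.000243). The MTHFD2 groups overlapped, at 236.0 and 239.7 CPM, and its difference changed sign, from -0.02 to 0.06 on the log2 scale, under scaling by library size alone. Line, medium and induction differ together here and cannot be told apart. When all 5 groups were ordered by mean level on this scale, neighbouring groups overlapped for 3 of the 10 genes: SHMT2 in the 3 TOV-112D groups, MTHFD2 in p53-null and DMSO, and SLC38A2 in p53-null, p53-WT and UCI-1014. Lack of overlap was common over all genes too, at 84.1% between DMSO and p53-null.

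The transcripts behind these totals differed between the lines. For SLC7A5, the estimated share of the reference transcript SLC7A5-201 was 99.8% of the gene's TPM with DMSO, and 43.2% in p53-null and 38.5% in p53-WT, where SLC7A5-203 held 56.8% and 61.5%. The compounds left SLC7A5-201 at 99.2% or more on average. For PSPH, the transcript PSPH-209, annotated as a target of nonsense-mediated decay, held a mean of 2.61% of the gene's TPM in p53-null (1.76% to 3.95%) and 24.3% in p53-WT (22.1% to 27.8%), and PSPH-207 held 7.16% and 19.9%. The ranges of PSPH-209 do not touch. For ASNS, the reference transcript ASNS-202 held 82.6% under DMSO, 75.3% under UCI-1001 and 70.6% under UCI-1014, with a mean TPM of 40.5, 66.0 and 159.2. The short ASNS-210 took 1.88%, 5.02% and 4.56% in the same order. MTHFD2-205, also annotated as a decay target, held 47.3% to 49.9% of MTHFD2 TPM in each group on average. Transcripts of 1 gene share most of their bases, so these shares are model estimates, and they were not tested.

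**Figure D4:**
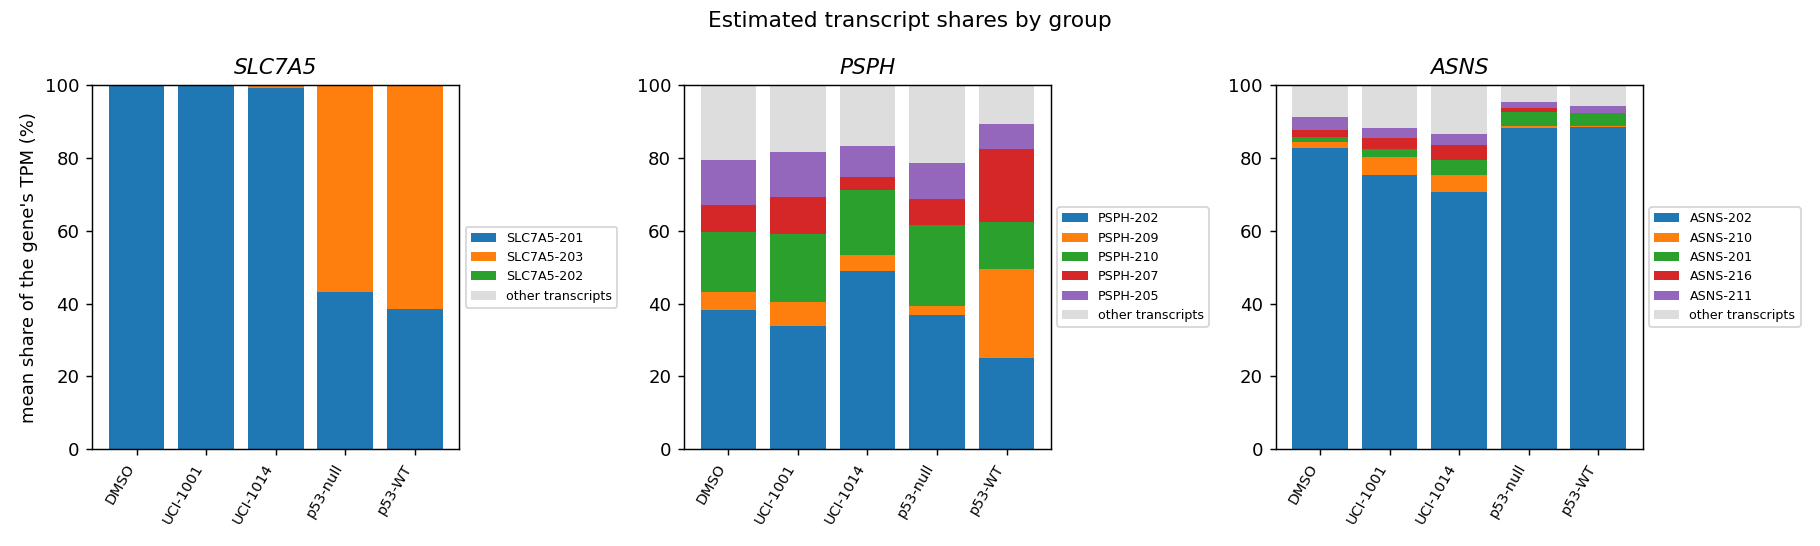
Mean estimated share of each gene's TPM (vertical axis, %) held by its 5 leading transcripts (3 for SLC7A5) and by the others, by group. SLC7A5-203 appears in the p53-null and p53-WT bars at 56.8% and 61.5%, PSPH-209 widens to 24.3% in p53-WT, and ASNS-202 narrows from 82.6% with DMSO to 70.6% with UCI-1014.

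The wider pathway was followed in 4 lists, also chosen with earlier results of these data known. Their counts stand against the shares of all genes tested, which were 9.39% higher and 6.36% lower for UCI-1001, 23.7% and 23.4% for UCI-1014 and 33.5% and 33% for p53-WT. Among 19 ATF4 pathway regulators, 12 were higher and 1 lower with UCI-1001 (median log2 fold change 0.64) and 15 higher and 3 lower with UCI-1014 (median 1.94). ATF4 was at 153.8 and 155.8 CPM with DMSO, 213.1 and 207.9 with UCI-1001 and 347.7 and 347.2 with UCI-1014, log2 differences of 0.44 (edgeR adjusted p = 1.74e-06) and 1.17 (adjusted p = 5.36e-12). DDIT3 (CHOP), which takes part in the death arm of the stress response, rose by 3.42 and 4.78 on the log2 scale, ATF3 by 4.05 and 5.72, CHAC1, which breaks down glutathione, by 3.74 and 5.25, and TRIB3, a pseudokinase that restrains ATF4, by 1.46 and 2.98. ATF5, an ATF4 relative, was lower with both, at -0.24 and -0.25. In p53-WT, 8 of the 19 were higher and 7 lower (median 0.17), near the shares of all genes (33.5% and 33%). ATF4 was at 266.0, 252.3 and 244.2 CPM in p53-null and 210.4, 173.2 and 170.1 in p53-WT, a log2 difference of -0.46 (adjusted p = 0.00369). TRIB3 was not called there (log2 0.06, adjusted p = 0.703), while DDIT3 (0.78), ATF3 (1.74) and the stress genes DDIT4 (3.90), NUPR1 (3.56) and SESN2 (3.11) were higher, and the tRNA exporter XPOT (-1.63), STC2 (-1.54) and CEBPG (-1.20) lower. CDKN1A, the cell cycle inhibitor p21 and a p53 target, rose by 1.65 and 3.54 with the compounds and by 7.01 in p53-WT.

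Most of the other serine, glycine and folate genes were not called higher with the compounds. Among 18 tested in TOV-112D, 2 were higher and 2 lower with UCI-1001, and 4 higher and 8 lower with UCI-1014 (medians -0.01 and -0.09). The numbers higher were near the shares of all genes (9.39% and 23.7%), while the 8 of 18 lower with UCI-1014 stood against 23.4% of all genes. CTH, which makes cysteine from cystathionine, rose by 0.85 and 1.61 on the log2 scale (edgeR adjusted p = 0.0299 and 4.67e-05). MAT2A, which makes S-adenosylmethionine, was lower by a like amount with each, at -0.78 (adjusted p = 9.14e-09) and -0.81 (adjusted p = 7.57e-10). GCSH and TYMS were lower with UCI-1014, at -0.56 and -0.23, and ALDH1L2 higher at 0.49. In p53-WT, 5 of 20 were higher and 10 lower (median -0.28). ALDH1L2, a mitochondrial folate dehydrogenase, was higher by 4.04, the glycine cleavage enzyme GLDC by 1.98 and AHCY by 1.58, while the cytosolic SHMT1 (-1.68) and MAT2A (-1.51) were lower.

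The other amino acid synthesis genes were called about as often as all genes tested with the compounds (9.39% higher with UCI-1001, 23.7% higher and 23.4% lower with UCI-1014). Of 18, UCI-1001 raised 2, GOT1 and PYCR1, with 16 not called, and UCI-1014 raised 5 and lowered 5. GOT1, the cytosolic aspartate transaminase, rose by 0.45 (edgeR adjusted p = 0.000161) and 1.58 (adjusted p = 2.22e-11). With UCI-1014, GLUL and BCAT1 rose by 0.29 and 0.21, and ASS1, OAT and GLUD1 were lower, at -0.60, -0.23 and -0.21. In p53-WT, 4 of 17 were higher and 7 lower. PRODH, which degrades proline, was higher by 5.84 (9.04 against 0.15 CPM), ASS1 by 4.43 and GPT2 by 1.40, while BCAT1 (-1.49), PYCR1 (-1.26) and PYCR3 (-1.21) were lower.

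Of 21 other amino acid transporters tested in TOV-112D, 6 were higher and 15 not called with UCI-1001, and 9 higher and 3 lower with UCI-1014 (medians 0.05 and 0.19), where 9.39% of all genes were higher with UCI-1001 and 23.7% higher and 23.4% lower with UCI-1014. The cystine carrier SLC7A11 rose by 0.59 (edgeR adjusted p = 8.28e-08) and 1.07 (adjusted p = 1.52e-11) and the serine and alanine carrier SLC1A4 by 0.44 and 1.08. SLC43A2 rose by 0.55 with UCI-1001 and the lysosomal SLC36A1 by 1.05 with UCI-1014, and both were called higher with each compound. SLC38A5, SLC6A15 and SLC7A2 were lower with UCI-1014 by 0.16 to 0.20 in size. In p53-WT, 5 of 18 were higher, with SLC36A1 at 1.15, SLC43A2 at 1.10 and SLC1A3 at 0.62, and 10 were lower, with SLC7A2 at -2.42, SLC6A15 at -2.16 and the glutamine carrier SLC1A5 at -1.97 (median -0.49), against 33.5% and 33% of all genes.

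**Figure D5:**
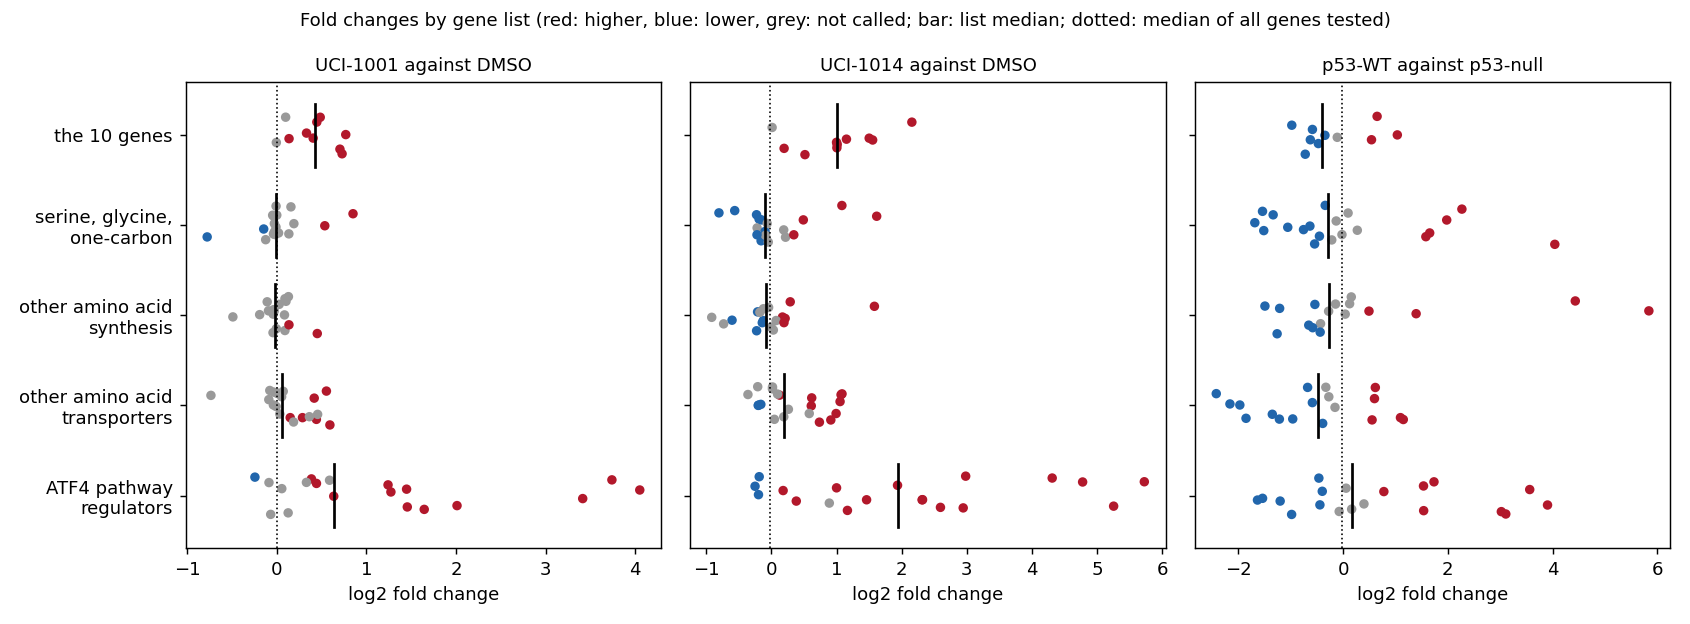
Log2 fold change of every tested gene in the set of 10 and in 4 further lists (rows), by comparison; colour gives the call, the bar the list median and the dotted line the median of all genes tested. With UCI-1014 the medians are 1.01 for the 10 genes and 1.94 for the ATF4 pathway regulators, and between -0.09 and 0.19 for the other 3 lists.

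Over all 12 libraries and 12938 genes, the patterns most like that of ASNS by Pearson's r of log2 CPM were those of HSPE1 (0.978), a mitochondrial co-chaperone, GOT1 (0.978), TAF7 (0.971), a subunit of TFIID, NFE2L2 (0.965), a regulator of antioxidant genes, and TXNRD1 (0.964), thioredoxin reductase. Of the 10 genes, PSAT1 was nearest (0.729), then SLC38A2 (0.692) and MTHFD2 (0.518), and SHMT2 (-0.054) and PHGDH (-0.119) were farthest. The 12 libraries share 2 lines and 5 groups, so these values describe the groups and carry no test.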

How the data were processed

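RNA was sequenced from 12 libraries, 6 of TOV-112D cells and 6 of cells labelled Saos-2, grouped by their labels. Per the labels and the study's methods, the authors quantified reads with kallisto 0.48.0 on GRCh38, added the estimated counts of transcripts of one Ensembl gene, converted the sums to whole counts and tested them with DESeq2 1.38.3. The deposited gene table holds these counts. The deposited file of each library holds the expected count and the TPM of 187626 transcripts, which the authors took from kallisto, and 88.4% of them matched GENCODE 44. Strandedness is not given in the sources used here. The 40295 rows were summed by symbol to 36486, where 8043 rows without a symbol kept their identifier and 25 symbols that read as dates are not named. Pseudogene rows of the 10 genes held at most 44 counts.

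The counts were tested with edgeR 4.0.16 in R 4.3.3 (TMM, filterByExpr with its minimum count of 10, glmQLFit, glmQLFTest, Benjamini-Hochberg adjustment, adjusted p under 0.05), with 1 fit for each line and 1 of all 12 libraries for the comparison of lines. The CPM values are TMM scaled within the fit, apart from those of the osteoblast and epithelial markers. The ranges and sums given for these markers are scaled by library size alone. Depth was 17762027 to 24629558 counts per library. The script was tested on simulated data. Alternatives were DESeq2 1.42.0, RLE factors, library size only, no filter, rows by identifier, the compared groups only, all libraries in one fit, a replicate block and each library left out. Tables and figures were made with Python 3.11.15, pandas 2.3.3 and matplotlib 3.10.9. All 10 genes are named in each comparison, and from each list at most the 3 largest rises and 3 largest falls among called genes that averaged 1 CPM or more, with ATF4, DDIT3, TRIB3, ATF3 and CDKN1A given whatever their change, beside the 5 genes most like ASNS. Genes and lists were chosen with earlier results of these data known. Some genes that this rule names are not reported here.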

Additional observations from a re-analysis of the deposited data

How the results depend on the processing

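Precision is limited by 2 libraries in each TOV-112D group and by replicate 1 of each line labelled Saos-2, and a single library decided SLC38A2 in p53-WT. Over 620 values of the 10 genes under the alternatives, 589 kept direction and side of the threshold, 15 lost a call, 1 gained one in the same direction and 15 changed sign. Those that changed sign were values of SHMT2, PHGDH, MTHFD2 and SLC38A2 that were not called in the reported fit, and SHMT2 with UCI-1014 under library size only was called after the change. The genes called with UCI-1001 went from 2232 to 1138 with DESeq2 and to 308 in the fit of all 12 libraries, where the members called higher went from 8 to 2, and to between 952 and 1843 with 1 library left out. With UCI-1014 they went from 6677 to 3421 in the fit of all 12 libraries, and for UCI-1014 against UCI-1001 from 4406 to 2639 with DESeq2 and 937 in that fit. The coefficient of variation was 9.7% in that fit and 3.59% in the fit of TOV-112D, and the cause of the lost calls was not tested. With library size only, 1 of the 10 genes was lower with UCI-1014, SHMT2 (-0.13), and the all-gene median moved by -0.135, by -0.115 against UCI-1001 and by -0.151 in p53-WT.

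SHMT2 with UCI-1014 was also at 0.00 with no filter, at -0.05 in the fit of all 12 libraries and between -0.02 and 0.05 with 1 library left out. SHMT2 with UCI-1001 ranged from -0.04 to 0.02 with 1 library left out. Against UCI-1001, UCI-1014 gave -0.02 for PHGDH and -0.10 for SHMT2 with library size only, and SHMT2 was at -0.02 in the fit of all 12 libraries and between 0.00 and 0.06 with 1 library left out. SLC38A2 in p53-WT ranged from -0.21 to 0.07 with 1 library left out and was at 0.09 without replicate 1 of both lines. MTHFD2 in DMSO against p53-null was at 0.06 with library size only and ranged from -0.07 to 0.06 with 1 library left out. The cause was not tested for any of these.

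Libraries of the same number did not deviate together in all pairs (r from -0.164 to 0.063 in TOV-112D and 0.075 to 0.139 in Saos-2), and p53-null replicate 2 correlated best with p53-WT replicate 3 (0.132), so the numbers were not taken to pair the samples. A replicate block gave 1774 genes with UCI-1001 (7 of the 10 higher, SLC3A2 lost), 6307 with UCI-1014, 3882 for UCI-1014 against UCI-1001 and 9814 in p53-WT, and changed no other call of the 10 genes. With crossed numbers the block called 5439 genes for UCI-1014 against UCI-1001, 9 of the 10 higher, an alternative added after the data were seen.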
